A study of Mus musculus with 28 samples.

Results

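The BCL2 family decides whether a cell opens its mitochondria and dies by apoptosis. The genes described here were 10 named members of the family, taken by their symbols from a count table of 29068 genes. They were the pro-survival genes Bcl2, Bcl2l1 (BCL-XL) and Mcl1, the pore-forming effectors Bax and Bak1, and the BH3-only genes Bid, Bcl2l11 (BIM), Pmaip1 (NOXA), Bbc3 (PUMA) and Bik. All 10 had enough counts to be tested, as did 18107 genes in all. RNA was sequenced from the skin of C57BL/6J mice during natural wound healing, in 28 libraries with 4 at each of days 0, 3, 5, 7, 10, 12 and 14. Day 0 was the control of the series. The study counts the day of wounding as its day 1 and names no day 0, and it does not say whether the day 0 libraries were taken on that day. According to these methods the mice were young adult MLKL+/+ littermates of both sexes, given excisional punch wounds in the dorsal skin, and the whole wound site with its scab and epithelial margin was collected. No group carried a gene deletion, and every group after day 0 differed from it in time since injury. The labels number the libraries of a day without naming animals, so that p-values measure the spread between libraries, which may be technical in part.

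Pro-survival members bind and hold their pro-apoptotic relatives. BH3-only members are sensors of stress and damage which occupy the pro-survival members or activate the effectors directly. Freed BAX and BAK form pores in the outer mitochondrial membrane, cytochrome c leaves, and the caspases are activated. In a skin wound, neutrophils die by apoptosis after their arrival, and keratinocytes and hair follicle cells pass through regulated cell death in normal turnover and in the hair cycle. Much of the family's activity is set by protein binding, cleavage and turnover, which RNA levels do not show. In bulk tissue, fewer cells of a type and less RNA per cell cannot be told apart.

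The libraries held 36706513 to 40655764 counts, with a median of 39499595. The day 0 libraries were the most uneven, with a biological coefficient of variation of 26.4% against 5.70% to 10.8% on the later days. Libraries 1 and 4 of day 0 stood apart from libraries 2 and 3. By a chi-square comparison of counts, library 4 of day 5, library 4 of day 7 and library 3 of day 14 also differed more from the others of their day than those did from each other. Library 1 of day 3 and library 3 of day 10 did so by a smaller margin. The summed fibroblast markers of libraries 1 and 4 were at 17746 and 10035 CPM (counts scaled to library size), against 41248 and 39829 in libraries 2 and 3, while the summed basal keratinocyte markers were at 5725 and 6510 against 2826 and 2920. The lists of keratinocyte, fibroblast and skeletal muscle markers were all detected on day 0, in keeping with the label skin.

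Every member differed between days. In the joint test over the 7 days, 10 of 10 members passed (edgeR quasi-likelihood test, Benjamini-Hochberg adjusted p from 1.8e-18 for Bcl2l11 to 0.000791 for Bik), on a background in which 89.5% of all tested genes passed. Among the 6 days after injury, without day 0, again 10 of 10 passed, against 85.1% of all genes. Such shares are near the background, and what follows describes direction, size and timing.

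On day 3, 6 members were higher than on day 0 (Mcl1, Bax, Bak1, Bid, Bcl2l11 and Pmaip1) and 2 were lower (Bcl2 and Bbc3), where 31.8% of all genes were called higher and 34.8% lower. The same numbers held on day 5, with 29.0% and 30.6% of all genes. On day 7, 4 members were higher and 2 lower (all genes 25.6% and 24.8%), and on day 10, 4 were higher and 3 lower (23.5% and 26.9%). On day 12 the numbers were again 4 and 3 (21.7% and 25.6%). By day 14, 3 members were higher (Bax, Bak1 and Pmaip1) and 5 were lower (Bcl2l1, Mcl1, Bid, Bbc3 and Bik), where 28.2% of all genes were higher and 34.5% lower. The median log2 fold change of the 10 members was 0.70 on day 3 beside a median of -0.032 over all genes, and -0.22 on day 14 beside -0.056. On day 12 the count was the least steady, with 7 members called in all and 3 called when only libraries 1 and 4 represented day 0.

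**Figure D1:**
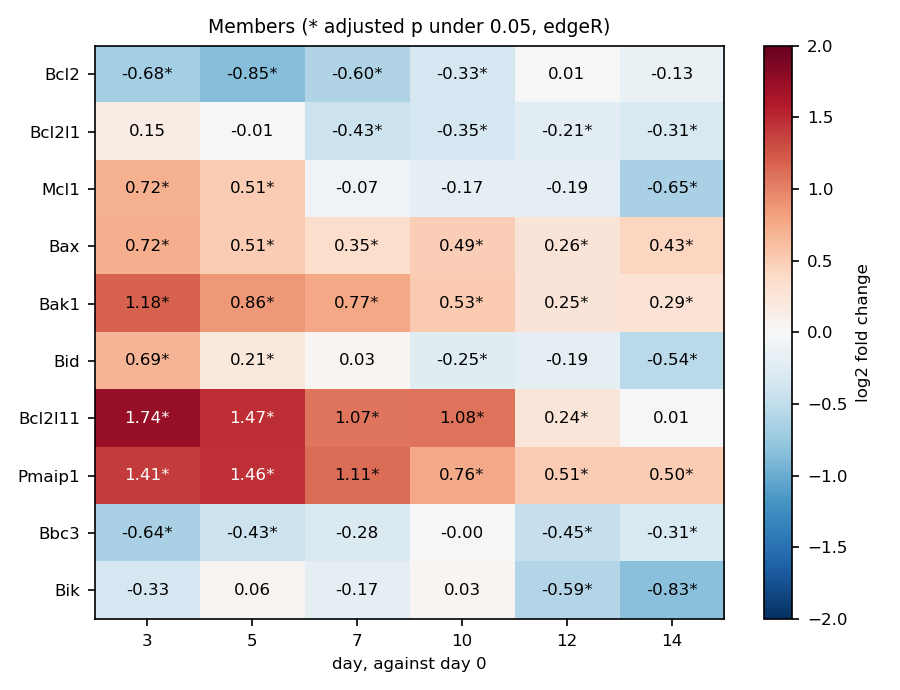
Log2 fold change of each member (rows) on each day after injury against day 0 (columns), from the edgeR fit of 28 libraries. The colour and the printed number give the same value, and a star marks an adjusted p under 0.05. Bcl2l11 and Pmaip1 had the largest increases of the 10 members, up to 1.74 and 1.46, and only Bax, Bak1 and Pmaip1 were starred as higher on all 6 days.

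Few members met the study's own criteria, which asked for an absolute log2 fold change above 1.5 and P below 0.05 before adjustment. The study used them on DESeq2 results, and here they were applied to the edgeR values. On day 3, 1 member passed (Bcl2l11) where 18.9% of all genes did. No member passed on day 5 (all genes 13.9%), day 7 (9.40%), day 10 (9.47%), day 12 (7.39%) or day 14 (14.0%). Over the alternative settings the log2 fold change of Bcl2l11 ran from 1.18 to 1.93 on day 3 and from 0.98 to 1.66 on day 5. That of Pmaip1 ran from 1.03 to 1.58 and from 1.09 to 1.64, so that passing depended on the setting.

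Bcl2l11 encodes BIM, a BH3-only protein able to bind all pro-survival relatives and known for ending the life of leukocytes. It showed the largest change among the 10 members. The gene lies on the plus strand of chromosome 2 (GRCm38, chr2:128126038-128162547, GENCODE annotation), and no other gene model shares its exonic bases. Values are given as FPKM, fragments scaled to transcript length and library size, which allow levels to be compared between genes. The 4 libraries of day 0 were at 1.41, 1.21, 1.14 and 1.57 FPKM, and those of day 3 at 4.29, 4.53, 4.15 and 4.15 FPKM. All day 3 libraries were above all day 0 libraries, and the level was 3.34-fold higher (log2 fold change 1.74, SE 0.079, adjusted p = 7e-17).

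The level of Bcl2l11 then came down in steps. On day 5 the libraries were at 3.58, 3.53, 3.77 and 3.47 FPKM, and on day 10 at 2.70, 3.09, 2.97 and 2.94 FPKM. Both days lay wholly above day 0 (1.47, adjusted p = 4.28e-15 and 1.08, adjusted p = 6.09e-12). Between day 10 and day 12 the level dropped to 1.88, 1.58, 1.65 and 1.86 FPKM with no overlap between the days (log2 fold change -0.84, SE 0.077, adjusted p = 1e-09), the largest change of any member between neighbouring time points after day 3. On day 12 it was still called above day 0 (0.24, adjusted p = 0.0121), which did not hold without library 3 of day 0 (adjusted p = 0.0633) or library 1 of day 12 (adjusted p = 0.056), nor under 3 alternative settings (adjusted p up to 0.367, with only libraries 1 and 4 as day 0). On day 14 the libraries were at 1.43, 1.55, 1.32 and 1.54 FPKM, within the range of day 0 (0.0077, adjusted p = 0.939, 95% interval -0.15 to 0.17), and 3.32-fold below day 3 (adjusted p = 3.76e-17). With only libraries 2 and 3 as day 0 it was called higher on day 14 (0.20, adjusted p = 0.0386).

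**Figure D2:**
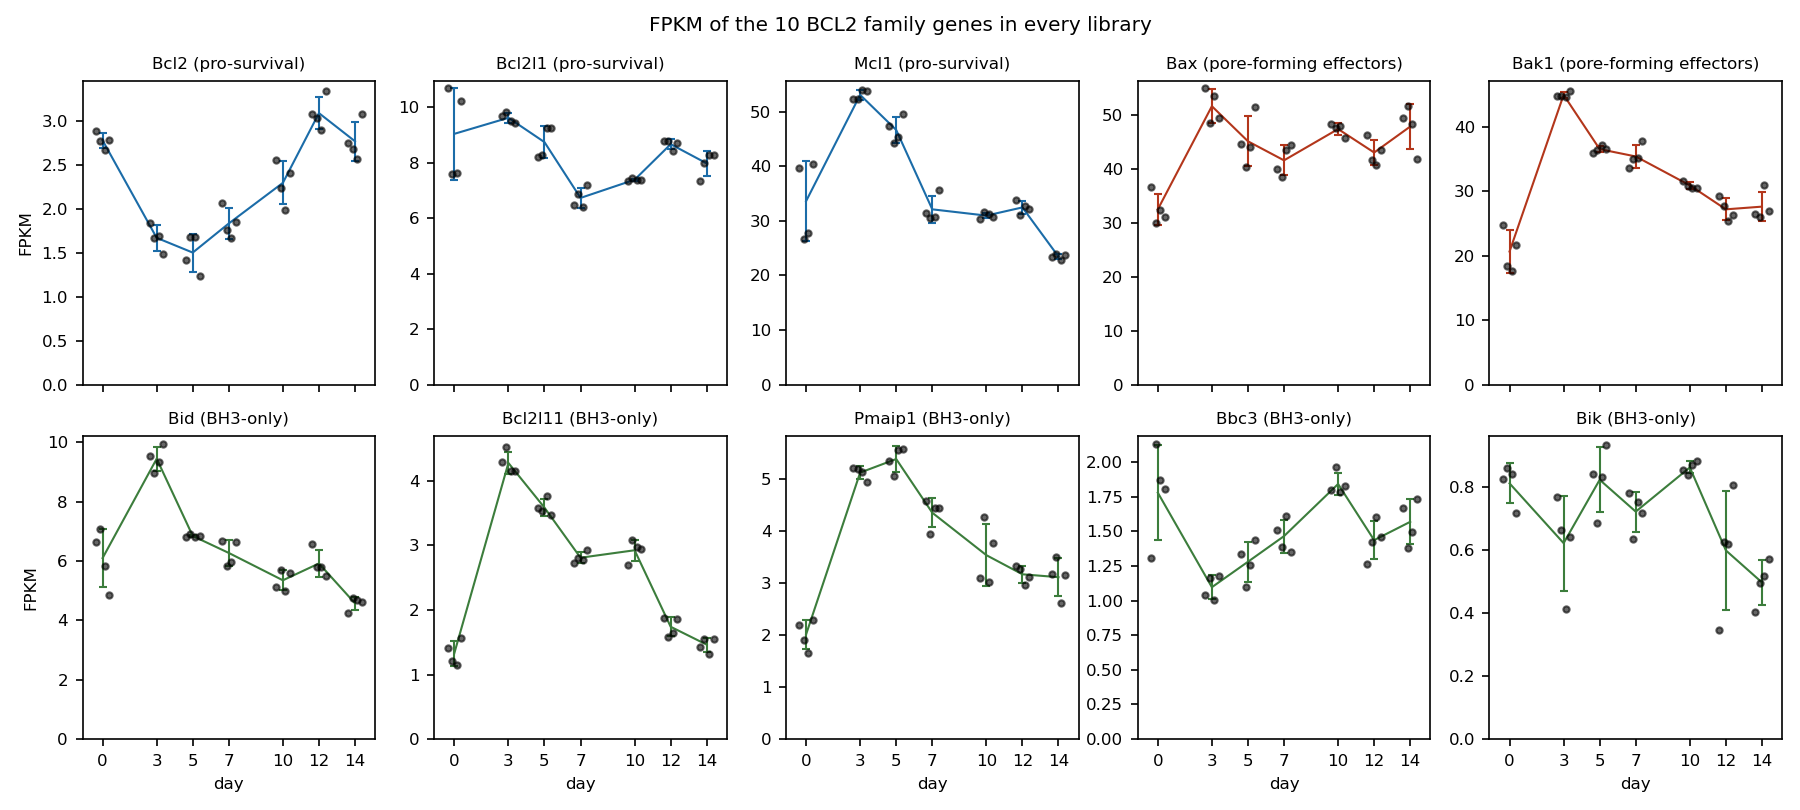
FPKM of the 10 members (vertical axes from 0) by day (horizontal axes) in every library. Points are single libraries, moved slightly sideways to be seen, and lines with bars give the mean and SD of 4 libraries. Bcl2l11 rose from 1.33 to 4.28 FPKM on day 3 and was back at 1.46 on day 14, Bcl2 was at 2.78 on day 0 and 3.09 on day 12 with lower levels between, and Bax stayed between 41.5 and 51.6 after day 0.

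The reference sequence before the start of Bcl2l11 is shown because this member had the largest rise, and those of Mcl1, which rose on day 3 and was below its starting level on day 14, and of Bcl2, which fell first and returned, are shown beside it. Each is the stretch of 250 bases that ends at the base before the RefSeq start (GRCm38.p6), printed 5′ to 3′ in the direction of the gene. Capitals mark letters that match a searched motif on either strand, those of the other strand being written as their complement.
Bcl2l11 (chr2:128125788-128126037, plus strand): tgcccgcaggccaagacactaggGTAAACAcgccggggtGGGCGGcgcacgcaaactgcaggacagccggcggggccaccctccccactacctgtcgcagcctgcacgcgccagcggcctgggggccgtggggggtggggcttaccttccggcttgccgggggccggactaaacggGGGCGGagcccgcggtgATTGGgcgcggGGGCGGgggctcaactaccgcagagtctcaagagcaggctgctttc
Mcl1 (chr3:95658471-95658720, plus strand): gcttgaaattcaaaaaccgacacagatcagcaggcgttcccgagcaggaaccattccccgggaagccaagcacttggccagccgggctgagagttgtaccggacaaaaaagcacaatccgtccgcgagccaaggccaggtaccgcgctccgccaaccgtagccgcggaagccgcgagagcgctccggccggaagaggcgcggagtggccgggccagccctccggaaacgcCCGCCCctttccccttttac
Bcl2 (chr1:106714291-106714540, minus strand): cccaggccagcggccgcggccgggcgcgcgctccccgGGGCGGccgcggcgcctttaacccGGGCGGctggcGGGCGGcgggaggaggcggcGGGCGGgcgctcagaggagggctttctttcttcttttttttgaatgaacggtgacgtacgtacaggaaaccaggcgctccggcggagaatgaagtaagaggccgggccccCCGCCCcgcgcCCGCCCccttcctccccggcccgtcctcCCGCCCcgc
In this Bcl2l11 window the capitals mark 1 match to the FOXO motif (GTAAACA), 3 GC boxes (GGGCGG) and 1 CCAAT box (CCAAT). Bcl2l11 has a second RefSeq start, whose window (chr2:128127325-128127574, not printed) holds 0 FOXO matches, 2 GC boxes and 2 CCAAT boxes. Those of Mcl1 mark 1 GC box and those of Bcl2 mark 7 GC boxes.

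RefSeq start sites, matched by symbol, were used for 8 of the 10 members, with 13 windows. None was used for Pmaip1, whose chromosome was left out of the search, or for Bik. A GC box was found in 9 of the 13 windows, against 32.7% of 32851 windows of the same length from all genes, and a CCAAT box in 3, against 33.8%. The 9 windows were 54% to 81.6% G and C, and the all-gene share was not matched for this. Windows of 1 gene are not independent, and 2 of those of Bbc3 overlap. The FOXO letters were found in 2 windows, 1 of the 2 of Bcl2l11 and 1 of the 3 of Bbc3 (all windows 3.17%), and the E2F letters TTTCGCGC in 1 of the 3 windows of Bcl2l1 (0.256%). AP-1 (TGANTCA), CRE (TGACGTCA) and STAT (TTCNNNGAA) letters were in none of the 13, and are in 6.75%, 1.55% and 7.02% of all windows. Both strands were searched, and a match is a run of letters and not a known site.

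Pmaip1 encodes NOXA, a BH3-only protein that binds MCL1 and hastens its breakdown. Its libraries were at 2.19, 1.91, 1.66 and 2.28 FPKM on day 0, 5.21, 5.19, 5.12 and 4.94 FPKM on day 3 and 5.34, 5.05, 5.55 and 5.58 FPKM on day 5. The rise was 2.65-fold on day 3 (log2 fold change 1.41, SE 0.11, adjusted p = 3e-12) and 2.75-fold on day 5 (log2 fold change 1.46, SE 0.11, adjusted p = 2.09e-12). On each of the 6 days all its libraries lay above every day 0 library, in FPKM and in the scaled CPM of the test alike. Days 3 and 5 did not differ beyond their spread (0.056, adjusted p = 0.738). From there the level declined to 3.18, 3.49, 2.61 and 3.16 FPKM on day 14, which was still above day 0 (log2 fold change 0.50, SE 0.11, adjusted p = 0.00017).

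Bid encodes the BH3-only protein that caspase-8 cuts, the link from the death receptors to the mitochondria. The gene lies on the minus strand of chromosome 6 (GRCm38, chr6:120891930-120916853) and shares 628 of its 3550 exonic bases with Bcl2l13 on the other strand, which was at 2817 to 4412 counts in every library. Without knowledge of the strand setting, reads of the shared bases cannot be assigned. Bid was at 6.63, 7.07, 5.83 and 4.87 FPKM on day 0, 9.55, 8.96, 9.35 and 9.93 FPKM on day 3 and 4.25, 4.75, 4.68 and 4.61 FPKM on day 14. All day 3 libraries were above day 0 (log2 fold change 0.69, SE 0.087, adjusted p = 8.2e-08) and all day 14 libraries were below it (log2 fold change -0.54, SE 0.088, adjusted p = 5.51e-06), and between days 3 and 14 the level fell 2.34-fold (adjusted p = 9.43e-13). The fall between days 3 and 5 alone was 1.395-fold (-0.48, adjusted p = 0.000123).

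Bid was called slightly above day 0 on day 5 (0.21, adjusted p = 0.0437) and slightly below it on day 10 (-0.25, adjusted p = 0.0214), and neither call was steady. Under alternative scalings, filters, tools or choices of day 0 libraries the first was lost in 10 (adjusted p up to 0.24) and the second in 9 (adjusted p up to 0.191). With 1 library left out, the first was lost without any 1 of libraries 3 and 4 of day 0 and 1, 2 and 4 of day 5 (adjusted p from 0.0671 to 0.186), the second without any 1 of libraries 1 and 2 of day 0 and 1 and 3 of day 10 (adjusted p from 0.0587 to 0.124). On day 12 Bid was not called (-0.19, adjusted p = 0.0783), but was without library 4 of day 0 (adjusted p = 0.00709) or library 1 of day 12 (adjusted p = 0.0271). With only libraries 2 and 3 as day 0 Bid was not called on day 5 (adjusted p = 0.217) and was called lower on day 12 (adjusted p = 0.0165), and with only libraries 1 and 4 it was not called on day 10 (adjusted p = 0.191).

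Bbc3 encodes PUMA, a BH3-only protein and a classical p53 target. It was lower on day 3, when Bid, Bcl2l11 and Pmaip1 were higher. On day 0 its libraries were at 1.31, 2.13, 1.87 and 1.81 FPKM and on day 3 at 1.04, 1.17, 1.01 and 1.18 FPKM, all of the latter below all of the former (log2 fold change -0.64, SE 0.12, adjusted p = 4.82e-05, and from -0.80 to -0.40 over the alternative settings). Bbc3 returned to 1.80, 1.96, 1.78 and 1.83 FPKM on day 10, inside the range of day 0 (-0.0044, adjusted p = 0.98, 95% interval -0.25 to 0.24). It fell again on day 12 to 1.26, 1.42, 1.60 and 1.46 FPKM, below every library of day 10 (log2 fold change -0.45, SE 0.12, adjusted p = 0.00397) and below day 0 (-0.45, adjusted p = 0.00301). The call on day 14 (-0.31, adjusted p = 0.0284) was lost under 10 alternative settings (adjusted p from 0.0505 to 0.815) and without any 1 of libraries 2, 3 and 4 of day 0 and 2 and 3 of day 14 (adjusted p from 0.0528 to 0.262). On day 7 the difference missed the threshold (-0.28, adjusted p = 0.0536), passed it under 6 alternative settings, and did so without library 1 of day 0 (adjusted p = 0.00402) or library 3 of day 7 (adjusted p = 0.0389), and with only libraries 2 and 3 of day 0 (adjusted p = 0.00399). With only libraries 1 and 4 of day 0, Bbc3 was not called on day 5 (adjusted p = 0.157, and 0.052 with the 8 libraries of the days compared), day 12 (adjusted p = 0.151) or day 14 (adjusted p = 0.815).

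Bik encodes a BH3-only protein of the endoplasmic reticulum and was the lowest member by FPKM on every day. Its libraries were at 0.825, 0.862, 0.843 and 0.719 FPKM on day 0 and at 0.403, 0.497, 0.519 and 0.571 FPKM on day 14, with no overlap (log2 fold change -0.83, SE 0.20, adjusted p = 0.000669). On days 3, 5, 7 and 10 it did not pass the test, with means from 0.622 to 0.863 FPKM, although on day 3 it was called lower by limma on FPKM with a pseudocount of 1 or 0.1 (adjusted p = 0.0392 and 0.0498). It was called lower on day 12 (-0.59, adjusted p = 0.0154), when library 1 was at 0.346 FPKM and the others at 0.618 to 0.806, and this call was lost without that library (adjusted p = 0.0776) and in 4 alternative settings, among them with only libraries 1 and 4 of day 0 (adjusted p = 0.105).

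Bak1 and Bax encode BAK, which sits in the mitochondrial outer membrane, and BAX, which moves there from the cytosol. Both were called higher than day 0 on all 6 days. Bak1 was at 24.8, 18.4, 17.6 and 21.7 FPKM on day 0 and 44.7, 44.8, 44.5 and 45.6 FPKM on day 3, 2.26-fold higher (log2 fold change 1.18, SE 0.08, adjusted p = 4.11e-13). The 4 libraries of day 3 lay close together and far above day 0. The level came down to 33.6, 35.03, 35.1 and 37.8 FPKM on day 7 and 29.3, 27.8, 25.4 and 26.2 FPKM on day 12. On days 12 and 14 the FPKM ranges lay just above day 0, but in scaled CPM only 2 and 1 of the 4 libraries were above every day 0 library (0.25, adjusted p = 0.0104 and 0.29, adjusted p = 0.0022). The day 14 value ran from 0.19 with only libraries 1 and 4 as day 0 to 0.50 with only libraries 2 and 3. The day 12 call was lost without library 3 of day 0 (adjusted p = 0.0507), with the 8 libraries of the days compared (adjusted p = 0.0819) or with only libraries 1 and 4 of day 0 (adjusted p = 0.328).

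Bax was at 36.5, 29.9, 32.3 and 31.1 FPKM on day 0, 54.9, 48.4, 53.5 and 49.4 FPKM on day 3 and 49.5, 51.6, 48.2 and 41.8 FPKM on day 14. Each library of days 3, 5, 7, 10 and 14 was above every day 0 library, and on day 12 this held in FPKM and for 3 of 4 libraries in scaled CPM. The rise was 1.65-fold on day 3 (log2 fold change 0.72, SE 0.079, adjusted p = 5.24e-09) and 1.35-fold on day 14 (log2 fold change 0.43, SE 0.078, adjusted p = 2.65e-05). Where Bak1 dropped 1.85-fold between days 3 and 14 (adjusted p = 1.15e-10), Bax dropped 1.22-fold (adjusted p = 0.00171). The drop in Bax missed the threshold under 5 alternatives, namely scaling by upper quartiles or library totals and all 3 limma fits of FPKM (adjusted p from 0.0786 to 0.198). On day 12 the Bax call (0.26, adjusted p = 0.00739) was not made with only libraries 1 and 4 of day 0 (adjusted p = 0.0689) or with limma voom (adjusted p = 0.0527). Bax (chr7:45461697-45466898, minus strand, GRCm38) shares 192 of its 1576 exonic bases with Gm45808 on the same strand, a gene model that is not among the rows of the count table. Bak1 (chr17:27019810-27029009, minus strand) shares 614 of 2407 exonic bases with Ggnbp1 on the other strand, which was at 39 to 114 counts.

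Among the pro-survival members, Bcl2, the founder of the family, was the only one called lower on days 3 and 5. The gene (chr1:106538178-106714274, minus strand, GRCm38) shares 558 of 9157 exonic bases with an antisense gene model, D630008O14Rik, that is not among the rows of the table. Its libraries were at 2.88, 2.77, 2.67 and 2.78 FPKM on day 0, 1.83, 1.67, 1.69 and 1.48 FPKM on day 3 and 1.42, 1.68, 1.68 and 1.24 FPKM on day 5. On days 3, 5, 7 and 10 all libraries were below all those of day 0. The level was 1.60-fold lower on day 3 (log2 fold change -0.68, SE 0.089, adjusted p = 1.59e-07), 1.80-fold lower on day 5 (log2 fold change -0.85, SE 0.09, adjusted p = 4.16e-09) and 1.26-fold lower on day 10 (log2 fold change -0.33, SE 0.088, adjusted p = 0.00254). On day 12 Bcl2 was at 3.08, 3.03, 2.90 and 3.34 FPKM, above every library of day 10 (log2 fold change 0.34, SE 0.088, adjusted p = 0.00276) and not called against day 0 (0.0085, adjusted p = 0.948, 95% interval -0.17 to 0.19). On day 14 it was at 2.75, 2.68, 2.56 and 3.08 FPKM (-0.13, adjusted p = 0.189 against day 0). From day 3 to day 14 it rose 1.46-fold (adjusted p = 4.93e-06).

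Mcl1 encodes a short-lived pro-survival protein on which neutrophils depend, and it was the highest pro-survival member by FPKM on every day. The gene lies at chr3:95658788-95663176 on the plus strand (GRCm38). It was at 39.6, 26.7, 27.8 and 40.3 FPKM on day 0, 52.3, 52.3, 53.9 and 53.8 FPKM on day 3 and 23.3, 23.9, 22.9 and 23.7 FPKM on day 14. All libraries of day 3 were above day 0 (log2 fold change 0.72, SE 0.092, adjusted p = 1.07e-07) and all of day 14 were below it (log2 fold change -0.65, SE 0.092, adjusted p = 6.95e-07). Over the alternative settings the difference on day 14 ran from -0.82 with only libraries 1 and 4 as day 0 to -0.34 with only libraries 2 and 3, and that on day 5 (0.51, adjusted p = 2.25e-05) from 0.27 to 0.82 with the same choices. Between days 3 and 14 the level fell 2.57-fold (log2 fold change -1.36, SE 0.093, adjusted p = 3.22e-13). Much of this fall lay between days 5 and 7 (-0.58, adjusted p = 1.47e-05) and between days 12 and 14 (-0.45, adjusted p = 0.000223).

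On days 7, 10 and 12 the Mcl1 libraries stood at 30.4 to 35.7 FPKM, inside the spread of day 0, and no day was called (-0.071, adjusted p = 0.546 on day 7, -0.17, adjusted p = 0.118 on day 10 and -0.19, adjusted p = 0.0826 on day 12). Here the choice of day 0 libraries decided the direction. With only libraries 1 and 4 as day 0, Mcl1 was lower on the 3 days (-0.33, -0.43 and -0.43, adjusted p = 4.88e-05, 9.31e-07 and 9.67e-07). With only libraries 2 and 3 it was higher on day 7 (0.24, adjusted p = 0.00127) and at 0.14 and 0.12 on days 10 and 12 (adjusted p = 0.0568 and 0.112). Leaving out 1 library alone, either of 2 and 3 of day 0, brought Mcl1 past the threshold as lower on day 10 (adjusted p = 0.00869 and 0.0171) and on day 12 (adjusted p = 0.00614 and 0.0124).

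Bcl2l1 encodes BCL-XL, the pro-survival member known for protecting epithelial cells and platelets. It lies at chr2:152780668-152831728 on the minus strand (GRCm38). Its day 0 libraries were split, at 10.7, 7.59, 7.64 and 10.2 FPKM. The libraries of day 7 were at 6.47, 6.86, 6.39 and 7.20 FPKM and those of day 10 at 7.36, 7.45, 7.37 and 7.38 FPKM, all below every day 0 library (log2 fold change -0.43, SE 0.082, adjusted p = 7.68e-05 on day 7 and log2 fold change -0.35, SE 0.082, adjusted p = 0.000857 on day 10). The day 7 value was -0.65 with only libraries 1 and 4 as day 0 and -0.18 with only libraries 2 and 3. The step from day 5 to day 7 was a 1.34-fold fall (-0.42, adjusted p = 0.000232). On day 3 Bcl2l1 was at 9.70, 9.84, 9.50 and 9.44 FPKM and not called (0.15, adjusted p = 0.117).

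As with Mcl1, the day 0 libraries decided several Bcl2l1 calls. With only libraries 2 and 3 as day 0 it was higher on days 3 and 5 (0.40 and 0.25, adjusted p = 3.53e-06 and 0.00187) and was not called on day 10 (-0.092, adjusted p = 0.253), day 12 (0.049, adjusted p = 0.567) or day 14 (-0.054, adjusted p = 0.492). With only libraries 1 and 4 it was at -0.021 on day 3 (adjusted p = 0.79) and lower on day 5 (-0.21, adjusted p = 0.00531). Leaving out library 1 or 4 of day 0 made day 3 a call (adjusted p = 0.00155 and 0.00833) and removed those of day 12 (0.341 and 0.225, from 0.0397) and day 14 (0.13 and 0.0815, from 0.00182). The day 12 call was also lost without any 1 of libraries 2, 3 and 4 of that day (adjusted p from 0.0639 to 0.0941). Of the settings that keep all libraries or take part of day 0, 8 ended or turned the day 12 call and 5 ended that of day 14. The comparison of day 14 with day 3, which needs no day 0 library, gave a fall of 1.37-fold (-0.45, adjusted p = 2.03e-05).

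All 10 members differed between days 14 and 3, where 67.0% of all genes did. Bcl2 (0.55) and Bbc3 (0.33) were higher on day 14, and the other 8 were lower, from -0.29 for Bax to -1.73 for Bcl2l11 on the log2 scale. The Bik difference (-0.50, adjusted p = 0.0298) was lost under 7 alternative scalings, filters and tools (adjusted p up to 0.16) and without any 1 of libraries 1, 2 and 4 of day 3 and 1 and 2 of day 14 (adjusted p from 0.0568 to 0.142). That of Bbc3 (0.33, adjusted p = 0.0192) was lost without library 1 or 4 of day 14 (adjusted p = 0.0525 and 0.0585).

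Steps between neighbouring time points were added after the values had been seen. From day 3 to day 5, 3 members fell and 0 rose (24.3% of all genes changed in either direction), and from day 5 to day 7, 4 fell and 1 rose (28.5%). From day 7 to day 10, 3 fell and 1 rose (32.3%), from day 10 to day 12, 5 fell and 1 rose (39.4%), and from day 12 to day 14, 3 fell and 0 rose (45.2%). Bcl2 was the riser in each of the 3 steps with 1. Of the 5 members that fell from day 10 to day 12, Bcl2l11 (-0.84), Bik (-0.62), Bbc3 (-0.45), Bak1 (-0.27) and Bax (-0.23), the call of Bax missed the threshold under 4 alternative settings (adjusted p up to 0.15) and without any 1 of libraries 1, 2 and 3 of day 10 and 2 and 3 of day 12 (adjusted p from 0.0528 to 0.0655) and that of Bik without library 1 of day 12 (adjusted p = 0.0648). That of Bak1 was lost with limma on log2(FPKM + 0.1) (adjusted p = 0.0537).

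Other steps were not steady either. The rise of Bcl2 from day 5 to day 7 (0.24, adjusted p = 0.0423) was lost under 4 alternative settings and without any 1 of libraries 1 and 4 of day 5 and 1, 2 and 4 of day 7 (adjusted p from 0.0516 to 0.2), and that from day 7 to day 10 (0.27, adjusted p = 0.0193) without any 1 of libraries 2 and 3 of day 7 and 1 and 4 of day 10 (adjusted p from 0.0533 to 0.0787). From day 7 to day 10, the fall of Bak1 (-0.25, adjusted p = 0.0175) was lost without library 4 of day 7 (adjusted p = 0.0552) or with limma on log2(FPKM + 0.1) (adjusted p = 0.0534), that of Bid (-0.28, adjusted p = 0.0148) without library 1 of either day (adjusted p = 0.0513 each), and that of Pmaip1 (-0.35, adjusted p = 0.0089) without library 1 of day 10 (adjusted p = 0.0534). The fall of Bcl2l11 from day 12 to day 14 (-0.24, adjusted p = 0.0156) was lost without any 1 of libraries 1 and 4 of day 12 and 3 of day 14 (adjusted p from 0.0504 to 0.0876) and with no filter on low counts (adjusted p = 0.0515). The rise of Bcl2 from day 10 to day 12 held in every such refit.

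The ratio of Bax to Bcl2 is widely read as a measure of how ready a tissue is for apoptosis, and a ratio within a library needs no scaling between libraries. In FPKM it was 12.7, 10.8, 12.1 and 11.2 in the day 0 libraries and 29.9, 29.0, 31.7 and 33.3 in those of day 3. On day 5 it was 31.5, 24.0, 26.2 and 41.6, highest in library 4. On day 12 it was 15.0, 13.7, 14.0 and 13.0, and on day 14 17.97, 19.3, 18.8 and 13.6. Each of the 24 libraries taken after day 0 was above all 4 of day 0. The log2 ratio of counts exceeded its day 0 mean by 1.41 and 1.37 on days 3 and 5, by 0.96 and 0.83 on days 7 and 10, and by 0.26 and 0.57 on days 12 and 14.

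The ratio of Bax to Bcl2l1 was 3.41, 3.94, 4.22 and 3.04 on day 0 and 6.55, 6.39, 6.51 and 6.18 on day 10, in FPKM. Its log2 difference from day 0 was between 0.45 on day 12 and 0.82 on day 10. The ratio of Bcl2l11 to Mcl1, a BH3-only protein and one of its binding partners, was 0.0356, 0.0452, 0.0411 and 0.0388 on day 0. It stood at 0.0887, 0.0978, 0.0953 and 0.0959 in the libraries of day 10 and had come down to 0.0555, 0.0509, 0.0502 and 0.0577 by day 12. On day 14 it was 0.0615, 0.0648, 0.0578 and 0.0652, above every library of day 12. Its log2 difference from day 0 was 1.01 on day 3, 1.24 on day 10 and 0.42 on day 12, so that it was highest on day 10, later than Bcl2l11 itself. In all 18 comparisons (3 ratios on 6 days) no library of the later day overlapped with day 0. An exact two-sided permutation test gave p = 0.0286 each, the smallest that 4 against 4 libraries allow. As all 18 p-values were equal, adjustment over the 18 left 0.0286 and could not change it. The comparisons share the 4 day 0 libraries, and Bax recurs in them. Of all single genes tested, 31.8% were called higher and 34.8% lower on day 3. How often ratios of other gene pairs part from day 0 was not tested.

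**Figure D3:**
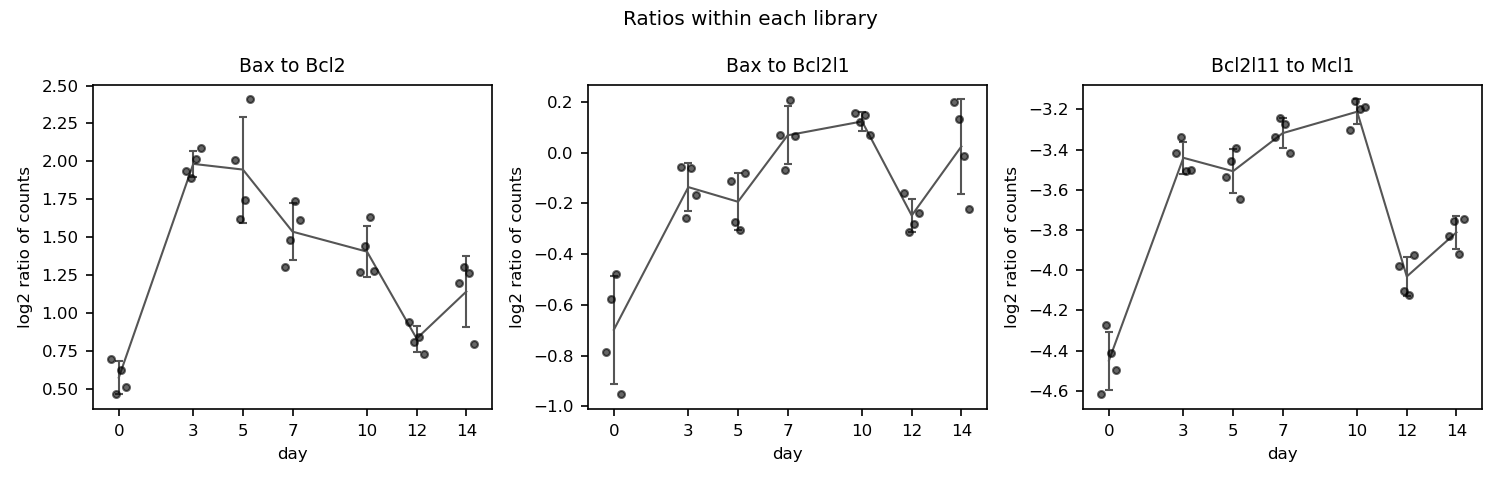
Log2 ratio of the counts of 2 genes within each library (vertical axes, not starting at 0) by day (horizontal axes), for Bax to Bcl2, Bax to Bcl2l1 and Bcl2l11 to Mcl1. Points are libraries, moved slightly sideways, and lines with bars give the mean and SD of 4. Every library after day 0 lies above the 4 of day 0 in each panel, with the Bax to Bcl2 ratio highest on days 3 and 5 and the other ratios highest on day 10.

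Summed over roles, the pro-survival members were at 45.4 ± 9.09 FPKM on day 0 (SD, n = 4), 64.4 ± 0.638 on day 3 and 34.2 ± 0.762 on day 14. The effectors were at 53.1 ± 5.78, 96.5 ± 2.88 and 75.4 ± 4.63 FPKM on the same days, and the BH3-only members at 12.0 ± 0.918, 20.6 ± 0.383 and 11.2 ± 0.519 FPKM. Bax and Bak1 together held 48.1% ± 2.26 of the members' summed FPKM on day 0 and 62.4% ± 1.97 on day 14, while Bcl2, Bcl2l1 and Mcl1 held 40.8% ± 3.62 and 28.3% ± 1.39. The share of the BH3-only members stayed between 9.30% and 11.7%. Mcl1 made up most of the pro-survival sum, and Bid was the largest BH3-only member on days 0 and 3 (5.60% and 5.21% of the members' summed FPKM). These sums were not tested.

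**Figure D4:**
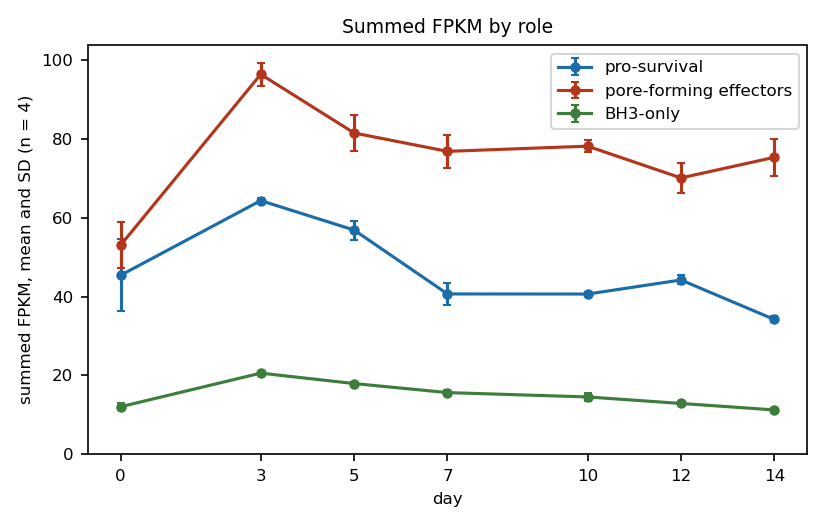
Summed FPKM of the pro-survival, pore-forming and BH3-only members (vertical axis from 0) by day (horizontal axis). Points and bars are the mean and SD of 4 libraries. All 3 sums were highest on day 3, and on day 14 the effectors were at 75.4 FPKM and the pro-survival members at 34.2.

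Among the other BCL2 family genes, the A1 genes rose on day 3. BCL2A1 is a pro-survival protein of leukocytes, and mice carry near-identical copies of its gene, among which reads can be shared, so that the copies are uncertain one by one. Bcl2a1b was at 4.18 ± 0.894 FPKM on day 0 and 18.6 ± 0.660 on day 3 (SD, n = 4; log2 fold change 2.21, SE 0.14, adjusted p = 1.18e-13). Bcl2a1a (2.23, adjusted p = 9.82e-07) and Bcl2a1d (1.22, adjusted p = 1.95e-06) rose too. By day 14 Bcl2a1b was not called (0.14, adjusted p = 0.423) but was without library 1 of day 0 (adjusted p = 0.0277), and Bcl2a1d was lower (-0.67, adjusted p = 0.0043), which did not hold without that same library (adjusted p = 0.0516) or in 3 alternative settings (adjusted p from 0.0699 to 0.115).

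Of the 8 other family genes tested, 3 were higher and 1 was lower on day 3, and 1 was higher and 3 were lower on day 14. Over all genes, 31.8% were higher and 34.8% lower on day 3, and 28.2% and 34.5% on day 14. The counts of 3 were near these shares. The lower count of day 3 ran from 0 to 2 over the alternatives, being 2 in 7 of them. With only libraries 1 and 4 of day 0, 5 were higher. Bcl2l2 (BCL-W, pro-survival) was slightly lower on days 3 and 14 (-0.24, adjusted p = 0.0163 and -0.27, adjusted p = 0.00851). Neither call held with only libraries 1 and 4 of day 0 (adjusted p = 0.527 and 0.554), and that of day 3 was lost without any 1 of libraries 2 and 3 of day 0 and 1, 3 and 4 of day 3 (adjusted p from 0.0533 to 0.172) and with limma voom (adjusted p = 0.0719). That of day 14 was lost without any 1 of libraries 2, 3 and 4 of day 0 (adjusted p from 0.0546 to 0.106) and in 7 alternative settings. Bok, a relative of BAX and BAK, was higher on day 14 (0.64, adjusted p = 8.88e-07), and Bmf, a BH3-only gene, was lower (-0.77, adjusted p = 3.54e-09). On day 3 Bmf was not called (-0.14, adjusted p = 0.112), but was lower in 6 alternatives (adjusted p from 0.0071 to 0.0368). Bad (BH3-only) was not called on day 3 (0.16, adjusted p = 0.0934), though it was with only libraries 1 and 4 of day 0 (adjusted p = 0.00206) or without any 1 of libraries 2 of day 0 and 2, 3 and 4 of day 3 (adjusted p from 0.0167 to 0.0403), nor on day 14 (-0.034, adjusted p = 0.732). Bcl2l10, at 3 to 39 counts, was not called (0.82, adjusted p = 0.123 on day 3), but was with only libraries 1 and 4 of day 0 (adjusted p = 0.0255). Hrk had at most 12 counts in a library and was not tested.

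Downstream of the pores, APAF1 binds cytochrome c and activates caspase-9. Of the 8 genes of this part of the pathway, 6 were higher and 0 lower on day 3 (median log2 fold change 0.62, all genes -0.032), and 3 were higher and 2 lower on day 14 (median 0.045, all genes -0.056). The shares of all genes were 31.8% higher and 34.8% lower on day 3, and 28.2% and 34.5% on day 14. Apaf1 rose on day 3 (1.28, adjusted p = 1.86e-14) and was below day 0 on day 14 (-0.34, adjusted p = 0.000361), the latter not with only libraries 1 and 4 of day 0 (adjusted p = 0.106). Cycs, which encodes cytochrome c, was higher on both days (0.67, adjusted p = 3.29e-08 and 0.53, adjusted p = 1.83e-06).

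Among the 4 caspase inhibitors, 3 were higher and 1 lower on day 3 (median 0.75), and 1 was higher and 2 lower on day 14 (median -0.11). The all-gene shares were 31.8% and 34.8% on day 3 (median -0.032), and 28.2% and 34.5% on day 14 (median -0.056). The lower count of day 3 was 0 without any 1 of libraries 1, 2 and 4 of day 0 or any library of day 3, and in 5 alternative settings (DESeq2, its size factors, limma voom and either pair of day 0 libraries). That of day 14 was 1 without any 1 of libraries 1, 2 and 3 of day 0 and in 9 alternative settings, and with only libraries 1 and 4 of day 0 the higher count of day 14 was 2. Birc3 (cIAP2) rose on day 3 and fell below day 0 on day 14 (1.16, adjusted p = 4.86e-12 and -1.14, adjusted p = 2.02e-11). Birc5 (survivin), which also serves in cell division, was higher on both days (1.49, adjusted p = 3.16e-08 and 1.91, adjusted p = 4.2e-10), as were all 5 proliferation markers. Xiap rose on day 3 (0.35, adjusted p = 0.000192, and from 0.20 to 0.57 over the alternative settings) and was not called on day 14 (-0.019, adjusted p = 0.845), where it was at 0.23 with only libraries 1 and 4 of day 0 (adjusted p = 0.0107) and at -0.17 with only libraries 2 and 3 (adjusted p = 0.0421).

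In the death receptor branch, which reaches BID through caspase-8, 5 of 7 genes were higher and 1 lower on day 3 (median 0.92), and 1 was higher and 3 lower on day 14 (median -0.49). For all genes the shares were 31.8% and 34.8% on day 3 (median -0.032), and 28.2% and 34.5% on day 14 (median -0.056). Tnfrsf10b, the TRAIL receptor, rose most of those named (1.94, adjusted p = 1.33e-14), and was still called higher on day 14 (0.46, adjusted p = 0.000893), but not with limma voom (adjusted p = 0.056). Casp8 rose on day 3 (1.21, adjusted p = 1.34e-16) and was not called on day 14 (-0.071, adjusted p = 0.279). Fas rose on day 3 (1.08, adjusted p = 1.02e-11) and was lower on day 14 (-0.68, adjusted p = 1.43e-07).

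The genes that induce BH3-only members showed no common direction, with 2 of 5 higher and 2 lower on day 3 and 2 higher and 1 lower on day 14. Beside them, 31.8% of all genes were higher and 34.8% lower on day 3, and 28.2% and 34.5% on day 14. With upper quartile scaling 0 were higher on day 3. Trp53, which encodes p53, was slightly higher on day 3 (0.18, adjusted p = 0.0158), a call lost under 7 alternative scalings or tools (adjusted p from 0.0551 to 0.241), and was higher on day 14 (0.62, adjusted p = 2.88e-09). Trp73 was lower on day 3 (-1.26, adjusted p = 6.79e-06, and from -1.64 to -0.59 over the alternative settings) and not called on day 14 (0.29, adjusted p = 0.209), though it was with only libraries 2 and 3 of day 0 (0.90, adjusted p = 3.58e-05), in the 3 limma fits of FPKM (adjusted p from 0.0201 to 0.0364) and without library 1 or 4 of day 0 (adjusted p = 0.0265 and 0.0144). Ddit3 (CHOP), a stress factor upstream of BIM and PUMA, missed the threshold on day 3 (0.16, adjusted p = 0.0578), passed it without library 4 of day 0 or any library of day 3 (adjusted p from 0.0136 to 0.0426) or with DESeq2 or its size factors (adjusted p = 0.0419 and 0.0433), and was lower on day 14 (-0.40, adjusted p = 2.75e-05).

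Of 15 p53 feedback genes and targets outside the family, 5 were higher and 8 lower on day 3 (median -0.27), and 3 were higher and 7 lower on day 14 (median -0.13). Among all genes 31.8% were higher and 34.8% lower on day 3 (median -0.032), and 28.2% and 34.5% on day 14 (median -0.056). Without library 1 of day 0, 5 in place of 8 were lower on day 3. Mdm2, the p53 antagonist, was higher on day 3 (0.48, adjusted p = 1.49e-06) and not called on day 14 (-0.13, adjusted p = 0.12). Cdkn1a (p21) was not called on day 3 (0.021, adjusted p = 0.788) and was lower on day 14 (-0.28, adjusted p = 0.000365), the latter missing the threshold without library 1 of day 0 (adjusted p = 0.0514) and with the 8 libraries of the days compared (adjusted p = 0.0508). Btg2 and Sesn2 rose on day 3 (1.10, adjusted p = 4.26e-15 and 1.17, adjusted p = 2.09e-12), and Sesn2 was called lower on day 14 (-0.24, adjusted p = 0.0171), a call lost in 8 alternative settings and without any 1 of 5 libraries (adjusted p from 0.0515 to 0.281), while Ccng1 was lower on days 3 and 14 (-0.80, adjusted p = 9.13e-14 and -1.26, adjusted p = 5.02e-17). Btg2 was lower on day 14 (-0.32, adjusted p = 5.04e-05), but not with only libraries 1 and 4 of day 0 (adjusted p = 0.136).

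**Figure D5:**
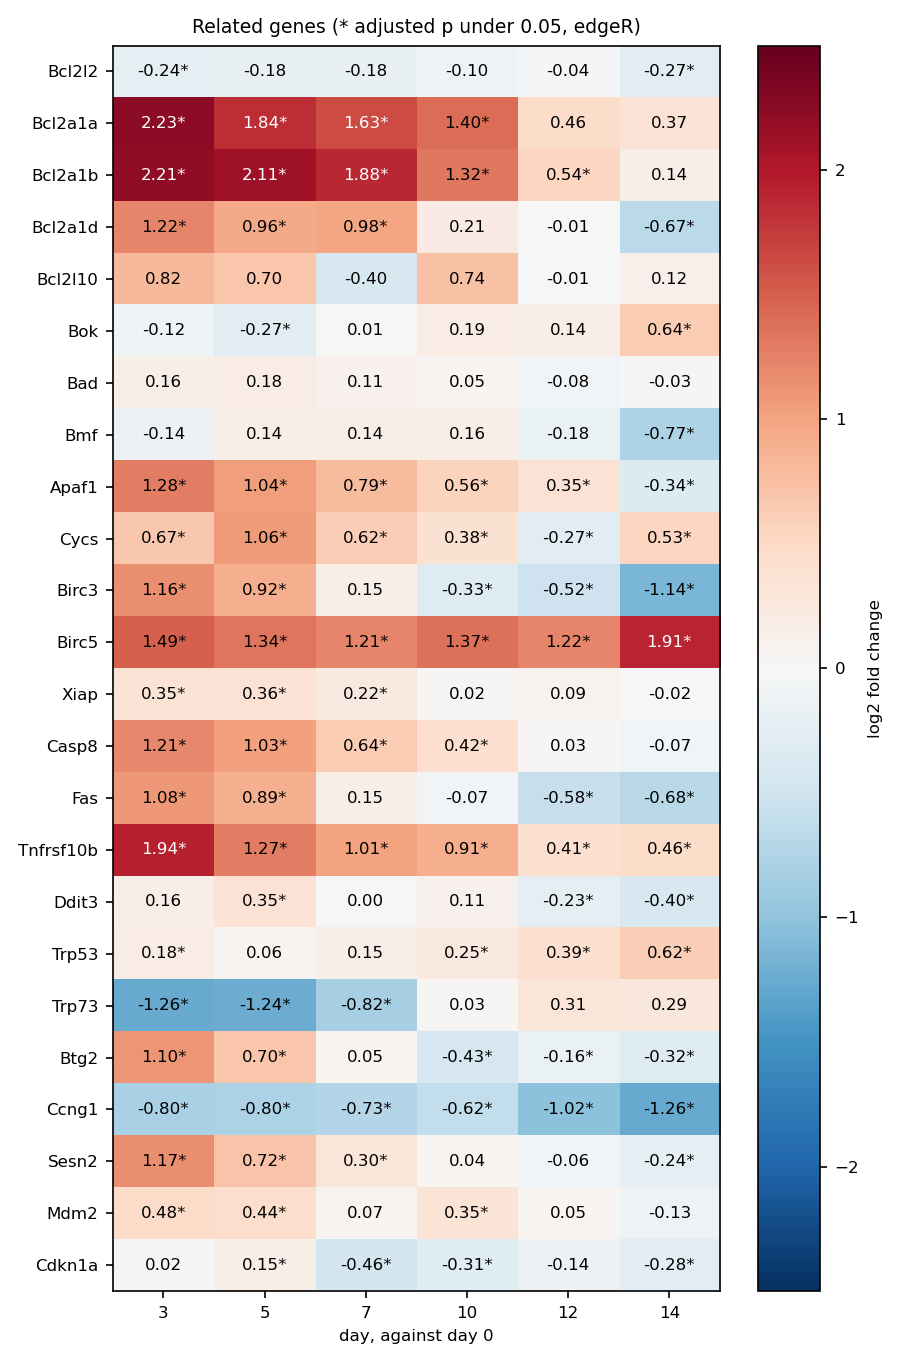
Log2 fold change of 8 further BCL2 family genes and of genes from the pathways around the family (rows) on each day after injury against day 0 (columns), from the edgeR fit. Colour and printed number give the same value, and a star marks an adjusted p under 0.05. The A1 genes, Apaf1, Casp8, Tnfrsf10b and Birc5 were higher on day 3, while Ccng1 was lower on all 6 days.

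Cell type markers moved over the same days. All 7 neutrophil markers were higher on days 3, 5, 7 and 10, and their summed level was 16.4 to 42.7 CPM in the day 0 libraries and 4369 to 5514 CPM in those of day 3. On day 10 it was still 222 to 247 CPM, and by day 12 it was 20.3 to 23.2 CPM. Of these 7, 1 was at 0 in every day 0 library. All 7 macrophage markers were higher on day 3 (869 to 1243 CPM on day 0, 2612 to 2682 on day 3) and all 7 were lower on day 14 (295 to 329.8 CPM). All 5 hair follicle markers were lower on day 3 and higher on days 12 and 14, from 177 to 1208 CPM on day 0 to 2.40 to 8.23 on day 3 and 3289 to 4436 on day 14, and the 5 melanocyte markers had the same calls (35.5 to 102, 4.66 to 6.05 and 701 to 863 CPM). All 5 skeletal muscle markers were lower on every day after day 0 (16381 to 27464 CPM on day 0, 3649 to 4743 on day 3). The part of these cell types in the members' levels was not tested.

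Further lists are given for days 3 and 14, on which 31.8% and 28.2% of all genes were higher and 34.8% and 34.5% lower. Of 5 T or NK cell markers, 1 was higher and 4 lower on day 3 and all 5 lower on day 14, of 2 B cell markers tested 0 were called on day 3 and 1 was lower on day 14, and of 3 mast cell markers 2 were lower on day 3, with 1 higher and 2 lower on day 14. Of 5 endothelial markers, 3 were higher and 1 lower on day 3 and 3 lower on day 14, and of 5 fibroblast markers 1 was higher and 4 lower on day 3 and all 5 lower on day 14. Of 4 basal keratinocyte markers 2 were lower on each of these days, as were all 4 of differentiated keratinocytes, and of 4 wound edge keratinocyte markers 3 were higher on day 3 and 2 on day 14. Of 4 adipocyte markers 2 were lower on day 3 and 2 higher on day 14.

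The genes whose log2 CPM followed each member most closely over the 28 libraries were searched among 10689 genes with a mean of at least 10 CPM. These libraries share their days, and the correlations are a description. Bcl2l11 was closest to Clec4e (Pearson r = 0.983) and Acod1 (r = 0.982), both genes of activated myeloid cells, and Pmaip1 to Clec4d (r = 0.958) and Atp6v1a (r = 0.957). Mcl1 was closest to Dusp1 (r = 0.976) and Slfn2 (r = 0.974), Bid to Ppt1 (r = 0.962) and Il1rap (r = 0.961), and Bak1 to Krt6a (r = 0.967), a keratin of wound edge keratinocytes, and Timp1 (r = 0.961). Bcl2 was closest to Casz1 (r = 0.950) and Erbb3 (r = 0.946), Bax to Tmed9 (r = 0.929) and Cfl1 (r = 0.917), and Bcl2l1 to Rabgef1 (r = 0.907) and 2310022A10Rik (r = 0.902). Bbc3 (Nfia, r = 0.811, and Smim10l1, r = 0.806) and Bik (Hacd1, r = 0.765, and Plpp1, r = 0.757) had the least similar neighbours.

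Between members, r was highest for Bak1 with Bcl2l11 (0.927), Bak1 with Pmaip1 (0.919) and Bcl2l11 with Pmaip1 (0.912). Bcl2 ran against these 3, with r of -0.84 to Bak1, -0.86 to Bcl2l11 and -0.87 to Pmaip1. Mcl1 and Bid were at 0.876.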

How the data were processed

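Skin RNA of 28 libraries was measured by RNA-seq. The authors deposited raw counts per gene and a table of FPKM values. The submitters' processing notes name fastp and R 3.2.0 and the build mm10, and the aligner, counting tool, annotation and strand setting are not given in the sources used here. No deposited column was left without a sample. Libraries were grouped by day from their labels. Counts were tested with the quasi-likelihood test of edgeR 4.0.16 in R 4.3.3, after edgeR's default filter on low counts and TMM scaling, in 1 fit of all 28 libraries (21 residual degrees of freedom), with Benjamini-Hochberg adjustment over 18107 genes of 29068, of which 347 had no count. A gene was called at an adjusted p under 0.05. Intervals are 95%. Ratios of 2 genes were taken on counts with a pseudocount of 0.5 and tested with an exact two-sided permutation test. Deposited FPKM served for levels and, through limma 3.58.1 on log2 values with a pseudocount of 1 or 0.1, as an alternative. Its scaling differs from TMM, so that FPKM and scaled CPM can order libraries differently. Other alternatives were DESeq2 1.42.0, limma voom, other scalings and filters, the 8 libraries of a pair of days, a replicate block and leaving out each library. Comparisons with part of the day 0 libraries and the steps between neighbouring days were chosen after seeing the data.

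The members and gene lists were chosen with earlier results of these data known. Named beyond the members are the other family genes, the 3 genes of each pathway list with the smallest joint-test P, Trp53, Mdm2 and Cdkn1a, and the 2 genes closest to each member. Among these, 1 gene is not reported here. The depth of 36706513 to 40655764 counts leaves low genes the least precise, with Bik at 31 to 82 counts. Same-numbered libraries of different days did not deviate together on average (mean correlation 0.0076, highest 0.397). The test's script was checked on simulated data.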

Additional observations from a re-analysis of the deposited data

Results flagged for a closer look

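A few member values stood apart from their group of 4 libraries by Dixon's test on log2 CPM, which chance passes in about 1 in 20 groups (70 groups were examined, and 4 passed). On day 3, Bcl2l1 was at 5.85 in library 2 and at 5.81 to 5.82 in the others, and Pmaip1 was at 3.83 in library 4 and at 3.87 in the others. Both distances are small beside the changes between days. Mcl1 on day 7 was at 8.29 in library 4 and at 8.10 to 8.13 in the others, and Bax on day 14 was at 5.18 in library 4 and at 5.45 to 5.48 in the others.

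For 2 members the effect against day 0 was called in opposite directions early and late. The days compared were picked as those of the highest and lowest value, so that the test could hardly fail and adds no support. Its values are those of days 14 and 3 given above, with the sign turned. The log2 fold change of Mcl1 was higher on day 3 than on day 14 by 1.36 (SE 0.093, edgeR adjusted p = 3.22e-13), and that of Bid by 1.23 (SE 0.088, adjusted p = 9.43e-13). Both members were above all day 0 libraries in 4 of 4 libraries on day 3 and below all of them in 4 of 4 on day 14. The summed macrophage markers and the summed endothelial markers (day 0 libraries at 430 to 554 CPM, day 3 libraries at 718 to 788 CPM, day 14 libraries at 333 to 391 CPM) were also above day 0 on day 3 and below it on day 14, and their part in these values was not tested.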

How the results depend on the processing

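Of the 60 comparisons of a member with day 0, 34 kept their direction and their side of the threshold under every alternative and 48 kept their direction. The number of members called on day 12 was 3 in place of 7 with limma voom, with the 8 libraries of days 0 and 12, and with only libraries 1 and 4 of day 0. On day 14 it was 5 in place of 8 with limma on log2(FPKM + 1) and a mean FPKM of at least 1, a filter that leaves Bik untested. The cause of the other changes was not tested.

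Directions that turned belonged mostly to differences near 0. With only libraries 2 and 3 of day 0, the log2 fold change was 0.25 for Bcl2l1 on day 5 and 0.049 on day 12, 0.24, 0.14 and 0.12 for Mcl1 on days 7, 10 and 12, -0.0026 and -0.031 for Bik on days 5 and 10, -0.039 for Bid on day 7 and -0.35 for Bcl2l10 on day 14. With only libraries 1 and 4 it was -0.021 for Bcl2l1 on day 3, 0.19 for Bbc3 on day 10, -0.0082 for Bcl2 on day 12, and on day 14 -0.080 for Bcl2l11, 0.17 for Bad, 0.23 for Xiap, 0.021 for Casp8 and -0.066 for Trp73. With limma voom Bcl2l1 was at 0.010 on day 5 and Bbc3 at 0.014 on day 10. With at least 10 counts in every library Bcl2 was at -0.0019 on day 12, Bcl2l11 at -0.00062 on day 14 and Cdkn1a at -0.0011 on day 3.

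Scaling by upper quartiles gave 0.031 for Bbc3 on day 10, -0.070 for Cdkn1a on day 3, and 0.0100 for Bad and 0.026 for Xiap on day 14. Scaling by library totals gave 0.049 for Bbc3 on day 10, -0.036 for Cdkn1a on day 3, and on day 14 0.091 for Bad, 0.11 for Xiap, 0.056 for Casp8 and 0.00065 for Mdm2. DESeq2's size factors gave 0.00036 for Bad and 0.016 for Xiap, DESeq2 itself 0.000061 and 0.016, and no filter 0.00066 and 0.016, with 0.0055 for Bbc3 on day 10. FPKM with a pseudocount of 1, with or without the filter, gave 0.040 for Bbc3 on day 10, -0.031 for Cdkn1a on day 3, and 0.092 for Bad, 0.088 for Xiap and 0.054 for Casp8 on day 14. With 0.1 these were 0.066, -0.031, 0.097, 0.11 and 0.059. The 8 libraries of the days compared gave 0.0057, -0.0052, 0.036, 0.053 and 0.00017.

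Leaving out 1 library turned the direction within -0.089 to 0.10 for Bcl2l1 on day 5, -0.010 to 0.14 for Bik on day 5, -0.16 to 0.027 for Mcl1 and -0.060 to 0.12 for Bid on day 7, -0.12 to 0.096 for Bbc3 and -0.019 to 0.063 for Bik on day 10, -0.029 to 0.048 for Bcl2 on day 12, and on day 14 -0.016 to 0.17 for Bcl2l11, -0.081 to 0.39 for Bcl2l10, -0.091 to 0.081 for Bad, -0.044 to 0.090 for Xiap and -0.096 to 0.053 for Casp8.

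Library totals moved the median of all genes on day 12 to 0.11 from -0.037, and the share of higher calls to 67.4% from 45.8%. On day 14 this share was 56.2% against 45.0%. Upper quartile scaling moved the median of day 3 to -0.12 from -0.032. On average the labels' replicate numbers did not pair libraries (mean correlation of same-numbered libraries 0.0076, over 0.1 in 4 of 84 pairs). Of the pairs with other numbers, 22 of 252 were over 0.1. The highest value was 0.397 among same-numbered pairs and 0.195 among the others. With the replicate block 12032 genes were called on day 3 in place of 12064, and no member call changed. The smallest p of a paired sign-flip test of the ratios would be 0.125, and 3 against 4 libraries allow no exact p under 0.0571.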
